A study of Mus musculus with 12 samples.

Results

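The genes described here are the molecular chaperones and their J-domain partners: the subunits of the cytosolic chaperonin, the heat shock proteins of every size class, and the proteins of the DNAJA, DNAJB and DNAJC families. They were taken by gene symbol from the array annotation. The rule holds no measured value, but it was set with earlier results of these data known. Each gene was represented by its brightest probe set over the 12 arrays, a choice made from the measured values. This gave 83 genes out of 19309 with a probe set of their own, and all 83 were found in the RefSeq gene table. Of these, Hspg2 (perlecan, a matrix proteoglycan), Hspb11 (a protein of intraflagellar transport) and Hspbap1 are grouped separately below, since they match the symbol rule without being chaperones. Hspa1b and Hsp90ab1, the near-identical partner of Hspa1a and the constitutive cytosolic HSP90, were not analysed here.

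RNA came from the thymus of FVB/N mice in 3 groups. The first group comprised 4 T-cell lymphomas induced by MYC in mice whose blood lineage lacked Dnmt3a, a de novo DNA methyltransferase (Dnmt3a-deficient tumors, taken at the terminal stage). The second comprised 5 terminal MYC-induced lymphomas in which the labels give Dnmt3a as wild type (control tumors). The third comprised 3 samples of non-tumor wild-type thymocytes taken at 24 days after birth. What drove MYC and the deletion is not given in the labels, and the normal thymocytes are labelled with neither. Nothing in the labels ties the arrays to separate animals, and p-values therefore cover only a spread among samples that may be technical. Age and tumor state cannot be told apart, because an age in days is given for the normal thymocytes alone. In bulk RNA, fewer cells of a type and less RNA per cell cannot be told apart either.

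Chaperones bind unfolded or partly folded proteins and let them reach their native form. The cytosolic chaperonin is a double ring built of related subunits that encloses newly made proteins, among them actin and tubulin. HSP70 proteins bind short hydrophobic stretches in a cycle of ATP use, J-domain proteins deliver substrates and start ATP hydrolysis, exchange factors release the nucleotide, and HSP90 acts late in the folding of kinases and receptors. Mitochondria and the endoplasmic reticulum have their own sets. Many of the genes are switched on by heat shock factors or, in the endoplasmic reticulum, by the unfolded protein response, and several chaperone genes are known as targets of MYC.

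Dnmt3a, measured as a check of the labels, had log2 values of 7.33, 7.62, 7.19 and 7.53 in deficient tumors, 8.58, 8.52, 8.48, 8.19 and 9.57 in control tumors, and 9.63, 9.48 and 9.33 in normal thymocytes. Every deficient tumor lay below every array of the other groups. Myc, also measured as a check, was lower in both kinds of tumor than in normal thymocytes. It was at 6.16 to 6.78 in deficient tumors, 5.99 to 7.49 in control tumors and 9.43 to 9.86 in normal thymocytes. The differences were -3.19 in deficient and -2.95 in control tumors (limma adjusted p = 4.82e-06 and 1.04e-05). Why Myc was lower in tumors labelled as MYC-induced was not tested. The upper quartile ran between 8.50 and 8.60 on the deficient tumor arrays and on those of control tumors 1 and 2, but between 8.13 and 8.30 elsewhere. Control tumors 1 and 2 also stood apart from control tumors 3, 4 and 5 within the chaperone genes: in 26 of the 83 genes both lay below the other control tumors and in 27 both lay above, against 21.1% and 25.5% of all genes. Among markers of other cells, the mean of 7 adipocyte genes was 8.51 in control tumor 2, against 5.22 to 5.58 on the remaining arrays. The mean of 10 neutrophil genes was 8.25 and 8.17 in control tumors 3 and 4, and 5.43 to 6.98 elsewhere. The mean of 9 T-cell genes was 10.11 to 10.85 in deficient tumors, 10.30 to 11.22 in control tumors and 11.82 to 11.86 in normal thymocytes, and 5 of the 9 were called lower in deficient and 4 in control tumors. Some markers were especially low on a few arrays. Cd2, a T-cell adhesion receptor, was at 7.04 and 7.77 in deficient tumors 3 and 4. It was at 9.48 and 9.73 in deficient tumors 1 and 2 and at 11.52 to 11.96 in normal thymocytes. Cd8a, a coreceptor, was at 7.60 in control tumor 5 and 8.23 in deficient tumor 2, against 12.53 to 12.63 in normal thymocytes. Of 10 macrophage genes, whose mean was 6.59 to 7.50 in deficient tumors, 5.88 to 7.74 in control tumors and 6.28 to 6.66 in normal thymocytes, Mertk (1.43, limma adjusted p = 0.015) and Adgre1 (0.86, limma adjusted p = 0.022) were higher in deficient tumors than in normal thymocytes. Of 9 fibroblast and endothelial genes, Dcn was higher there (2.03, limma adjusted p = 0.0409) and 2 were lower. Dcn was at 6.88 to 8.45 in deficient tumors, 7.72 and 8.76 in control tumors 1 and 2, and 5.36 to 5.47 in control tumors 3, 4 and 5. The mean of 7 B-cell genes was 5.73 to 6.27 in deficient tumors, 5.40 to 6.34 in control tumors and 6.16 to 6.40 in normal thymocytes. Among them Cd79b was the only marker gene called between the tumor groups (1.63, limma adjusted p = 0.0144). Against normal thymocytes, Cd79b was called higher in deficient tumors (0.76), but Cd79a (-1.41) and Blk (-1.07) were called lower there. In control tumors 2 of the 7 were called lower and none higher. The part of these differences in the results below was not tested beyond the values given beside them.

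Both kinds of tumor had more RNA for the main folding machines than normal thymocytes did. In deficient tumors 34 of the 83 genes were higher than in normal thymocytes and 9 were lower at a limma adjusted p under 0.05, while 18.7% of all genes were higher and 19% were lower. In control tumors 31 genes were higher and 5 were lower, against 13% and 11.3% of all genes. A change of at least 2-fold in addition was met by 23 higher and 2 lower genes in deficient tumors, against 11.8% and 4.94% of all genes, and by 20 higher and 1 lower in control tumors, against 7.61% and 3.26%. The median difference from normal thymocytes was 0.44 in deficient tumors, where that of all genes was -0.10. In control tumors it was 0.32, and that of all genes was -0.08. Both comparisons used the same 3 normal arrays and are therefore not independent of each other. With each array centred on its 75th percentile, which moves the median of all genes to -0.49 in deficient and -0.29 in control tumors, 28 genes were higher and 25 lower in deficient tumors, where 13.2% of all genes were higher and 47.9% lower. In control tumors 24 were then higher and 13 lower, against 10.3% and 21.7% of all genes. At the scale of the deposited values, 62 of the 83 genes lay in the brighter 50% of all genes, where calls were more frequent. Of these 62, 53.2% were higher and 8.06% lower in deficient tumors, against 34.4% and 19.8% of all genes in the brighter 50%. In control tumors 50% of the 62 were higher and 6.45% lower, against 24.8% and 16%.

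The genes differed by class. Class counts at the scale of the deposited values, here and below, are to be read against the shares of all genes. These were 18.7% higher and 19% lower in deficient tumors, and 13% and 11.3% in control tumors. The higher calls lay mostly among the chaperonin subunits, the mitochondrial and cytosolic heat shock proteins and the endoplasmic reticulum chaperones, and the lower calls mostly among DNAJA and DNAJB genes. With the 75th percentile 6 chaperonin subunits remained higher in both kinds of tumor, and of the 21 other DNAJC genes 10 were lower and 5 higher in deficient tumors and 6 lower and 3 higher in control tumors, lower shares near those of all genes at that scaling. None of the 7 small heat shock protein genes passed in either comparison at the scale of the deposited values. In all, 47 of the 83 genes passed in a comparison with normal thymocytes and 36 in none, and none passed in opposite directions.

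**Figure D1:**
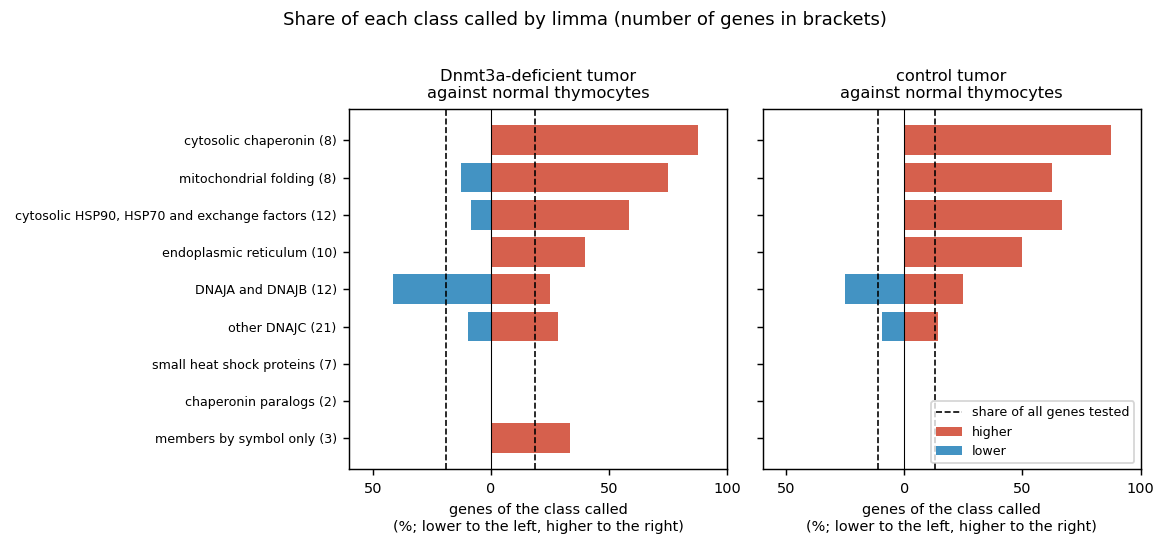
Share of the genes of each class called higher (right of 0) or lower (left of 0) than normal thymocytes, in percent, for Dnmt3a-deficient tumors and control tumors, with the number of genes of the class in brackets. Dashed lines give the share of all 19309 genes called, and the cytosolic chaperonin bars, 7 of 8 genes higher in both panels, extend farthest.

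Of the 8 subunits of the cytosolic chaperonin, 7 rose in both kinds of tumor. Cct6a had log2 values of 11.30, 11.39, 11.48 and 11.50 in deficient tumors, 10.95, 10.93, 11.17, 11.08 and 10.69 in control tumors, and 9.69, 9.46 and 9.64 in normal thymocytes. All 3 groups lay apart, with the deficient tumors highest. Its difference from normal thymocytes was 1.82 (SE 0.141) in deficient and 1.37 (SE 0.135) in control tumors (limma adjusted p = 1.48e-06 and 1.33e-05), or 3.53-fold and 2.58-fold. Cct4 was 3.51-fold higher in deficient and 3.17-fold higher in control tumors, and Cct3 rose by 1.45 in deficient and 1.20 in control tumors on the log2 scale. Cct5 rose by 0.91 in deficient and 0.87 in control tumors. Cct2 rose by 0.51 in deficient and 0.64 in control tumors, the smallest increases of the 7. Its calls in both tumor groups were lost with the 75th percentile, and that in deficient tumors also with cyclic loess normalization.

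Cct8 and Tcp1 rose as well, but unevenly within the control tumors. Cct8 had log2 values of 10.60, 10.73, 10.81 and 10.86 in deficient tumors, 10.50, 10.70, 11.97, 11.70 and 11.54 in control tumors, and 9.56, 8.84 and 9.72 in normal thymocytes. Control tumors 1 and 2 lay among or below the deficient tumors and control tumors 3, 4 and 5 above all of them. The difference from normal thymocytes was 1.37 in deficient tumors (SE 0.327, limma adjusted p = 0.00519) and 1.91 in control tumors (SE 0.312, limma adjusted p = 0.000592). Tcp1, which encodes the first described subunit, had 10.77, 11.02, 11.26 and 11.13 in deficient tumors, 10.82, 10.95, 11.75, 11.71 and 11.41 in control tumors, and 9.89, 9.57 and 10.16 in normal thymocytes, with the same split of the control tumors.

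Cct7 was the exception. It had log2 values of 10.40, 10.60, 10.71 and 10.81 in deficient tumors, 10.41, 10.32, 11.33, 11.38 and 11.14 in control tumors, and 10.98, 10.93 and 10.95 in normal thymocytes. Deficient tumors and control tumors 1 and 2 lay below the normal arrays, and control tumors 3, 4 and 5 above them. Neither difference from normal thymocytes passed the test (-0.33 in deficient tumors, limma adjusted p = 0.327, and -0.04 in control tumors, limma adjusted p = 0.929), and that of control tumors was 0.33 without control tumors 1 and 2. The paralogs Cct6b and Cct8l1 were dim, between 4.37 and 5.61 on all arrays, and passed in no comparison. Across the 8 subunits the mean log2 value was 10.95 to 11.27 on deficient tumor arrays, 10.90 to 11.46 on control tumor arrays and 9.85 to 10.16 on normal arrays, so the tumor groups lay apart from the normal arrays and overlapped each other.

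**Figure D2:**
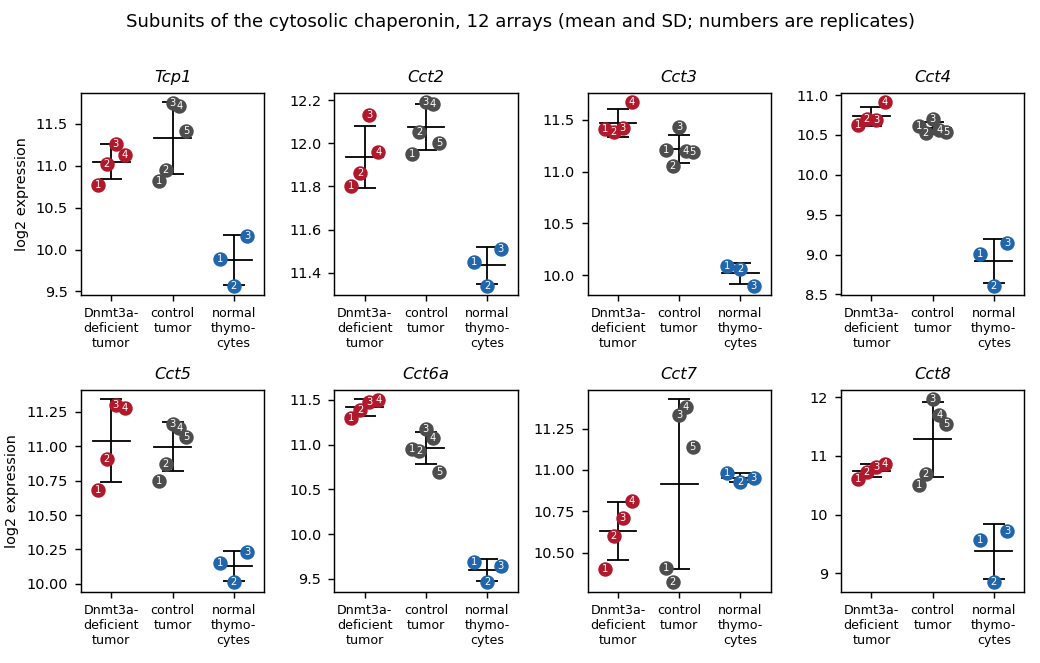
Log2 expression of the 8 subunits of the cytosolic chaperonin on each array (points, with the replicate number inside), with the mean and SD of each group as bars. The axes do not start at 0 and differ between panels. In Cct7, control tumors 1 and 2 lie at 10.41 and 10.32 and control tumors 3, 4 and 5 between 11.14 and 11.38, on either side of the normal arrays.

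Of the mitochondrial folding genes, 6 of 8 were higher and 1 was lower in deficient tumors, and 5 were higher and none lower in control tumors. Hspd1, the mitochondrial chaperonin HSP60, had log2 values of 11.84, 11.83, 11.87 and 12.03 in deficient tumors, 11.54, 11.38, 11.86, 11.57 and 11.68 in control tumors, and 8.98, 8.57 and 9.29 in normal thymocytes. Every tumor of either kind lay far above the normal arrays. It was 7.70-fold higher in deficient and 6.32-fold higher in control tumors (limma adjusted p = 3.33e-07 and 7.49e-07). A dimmer probe set of Hspd1 gave larger differences, 4.02 in deficient and 3.52 in control tumors, where the brighter gave 2.94 in deficient and 2.66 in control tumors. Hspa9, the mitochondrial HSP70 that pulls proteins in during import, had 11.09, 11.37, 11.33 and 11.39 in deficient tumors, 10.91, 11.08, 11.43, 11.12 and 11.01 in control tumors, and 8.79, 8.77 and 9.39 in normal thymocytes. It was 4.96-fold higher in deficient and 4.37-fold higher in control tumors (limma adjusted p = 1.48e-06 and 3.22e-06).

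Hspe1, HSP10, which closes the ring that Hspd1 forms, did not follow that size. It had log2 values of 10.80, 10.86, 10.89 and 11.29 in deficient tumors, 10.35, 10.50, 11.91, 11.58 and 11.63 in control tumors, and 10.49, 10.21 and 10.32 in normal thymocytes. The deficient tumors lay above the normal arrays, whereas control tumors 1 and 2 lay among or next to them and control tumors 3, 4 and 5 far above. The differences were 0.62 (SE 0.333, limma adjusted p = 0.161) in deficient and 0.85 (SE 0.319, limma adjusted p = 0.0685) in control tumors. Without control tumors 1 and 2 the control difference was 1.37 (limma adjusted p = 0.000111), and the deficient difference of 0.62 passed too (limma adjusted p = 0.00639). A second probe set gave 0.71 in deficient and 0.90 in control tumors. Hspd1 and Hspe1 have near-identical copies elsewhere in the genome, so their levels are uncertain. The same doubt applies to the probe sets of Hsp90aa1 and Dnaja1 described below. For Hspa8 and Hspb1 it was likewise not tested which probe set lies at the gene itself.

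Among the mitochondrial J proteins, Dnajc15, which sits at the import motor of the inner membrane, had log2 values of 8.16, 9.12, 9.18 and 9.28 in deficient tumors, 8.61, 8.73, 7.72, 7.52 and 7.48 in control tumors, and 6.68, 6.65 and 6.54 in normal thymocytes. All tumors lay above the normal arrays, and control tumors 1 and 2 were the highest of their group. The difference was 2.31 (SE 0.337, limma adjusted p = 0.000169) in deficient and 1.39 (SE 0.323, limma adjusted p = 0.00654) in control tumors. Its relative Dnajc19, also of the import motor, rose by 0.90 in deficient and 0.69 in control tumors, and Dnaja3, a partner of mitochondrial HSP70, by 1.14 in deficient and 0.58 in control tumors. The lower gene was Dnajc30, at 7.64 to 8.15 in deficient tumors, 7.53 to 8.77 in control tumors and 8.07 to 9.17 in normal thymocytes. Its difference was -0.80 in deficient tumors (limma adjusted p = 0.044), with groups that overlapped, and that call was lost with each array centred on its median.

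Hspd1 and Hspe1 lie side by side on chromosome 1 of GRCm38.p6 and are read in opposite directions. Hspd1, on the minus strand, has annotated starts at 55088243 and 55087932, which are 95 and 216 bases from the start of Hspe1 at 55088148 on the plus strand. Promoter windows of 250 bases before to 50 bases after the start were available from RefSeq for 69 of the 83 genes. They were searched on both strands for the heat shock element GAANNTTCNNGAA, 3 alternating units of the binding motif of heat shock factors. It was found in 4 of the 69 genes (5.8%), which were Hspd1, Hspe1, Dnajb6 and Hsph1, and in 0.662% of the 27025 genes with a window. The same letters fall in the windows of Hspd1 and of Hspe1, and in Hsph1 they lie after the start. The stretches of Hspe1 (chr1:55088028-55088147, plus strand) and Dnajb6 (chr5:29735778-29735897, plus strand) are printed 5′ to 3′ because they hold the element before the start, in capitals, with 2 overlapping matches joined in Hspe1.
Hspe1: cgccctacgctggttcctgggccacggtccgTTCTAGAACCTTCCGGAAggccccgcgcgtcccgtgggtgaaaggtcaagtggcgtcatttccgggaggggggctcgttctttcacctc
Dnajb6: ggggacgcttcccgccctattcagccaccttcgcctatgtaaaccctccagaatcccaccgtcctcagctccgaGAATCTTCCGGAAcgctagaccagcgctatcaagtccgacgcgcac
Of the 4 genes, Hspd1 and Hsph1 were higher in both tumor groups and Hspe1 and Dnajb6 passed in neither. Dnajb6, a J protein that keeps substrates from aggregating, differed by -0.33 in deficient and 0.22 in control tumors. The shorter element GAANNTTC, which every match of the longer one contains, was present in 15 of the 69 genes (21.7%) and in 9.04% of all genes. The E-box CACGTG, to which MYC and MAX bind, was present in 7 (10.1%), and in 8.09% of all genes. The 7 were Hspd1, Hsph1 and Dnajc1, which were higher in both tumor groups, and Dnajb9, Dnajc16, Dnajc8 and Hspbap1, which passed in neither. A match of letters is not a measured binding site.

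The cytosolic HSP90, HSP70 and exchange factor genes included 7 of 12 that were higher and 1 that was lower in deficient tumors, and 8 that were higher in control tumors. Hsp90aa1, the stress-inducible cytosolic HSP90, had the largest difference of the 83 genes with the brightest probe sets and all arrays in the fit. It had log2 values of 12.20, 12.05, 12.39 and 12.57 in deficient tumors, 11.96, 11.90, 12.50, 12.18 and 12.22 in control tumors, and 9.31, 7.57 and 10.04 in normal thymocytes. The tumors were within a narrow range and the normal arrays were spread widely below them, with normal thymocytes 2 lowest. The difference was 3.33 (SE 0.414, limma adjusted p = 4.83e-05) in deficient and 3.18 (SE 0.396, limma adjusted p = 7.74e-05) in control tumors. Without normal thymocytes 2 it was 2.63 in deficient and 2.48 in control tumors (limma adjusted p = 1.74e-05 and 3.4e-05). In deficient tumors Hspd1, at 2.75, was then above it. That normal array was the lowest of its group in 23 of the 37 genes called higher in a tumor group (62.2%), against 52.9% of all genes so called.

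Hspa4, an HSP110-type exchange factor for HSP70, had log2 values of 11.12, 11.14, 11.28 and 11.41 in deficient tumors, 10.88, 10.90, 10.70, 10.61 and 10.56 in control tumors, and 8.61, 8.50 and 9.05 in normal thymocytes. As with Cct6a, the 3 groups did not overlap and deficient tumors were highest. It was 5.72-fold higher in deficient and 4.02-fold higher in control tumors (limma adjusted p = 4.7e-07 and 2.62e-06). The related exchange factors followed at smaller sizes: Hsph1 rose by 1.89 in deficient and 1.76 in control tumors, and Hspa4l by 0.84 in deficient and 0.66 in control tumors. Hspa14 and Dnajc2, which form the ribosome-associated complex that meets nascent chains, rose by 1.29 and 1.81 in deficient tumors and by 0.96 and 1.46 in control tumors. Hspa2, an HSP70 best known from testis, rose by 0.89 in deficient and 0.67 in control tumors. Hspbp1, another exchange factor, differed by 0.90 in deficient tumors (limma adjusted p = 0.0214) and 0.38 in control tumors (limma adjusted p = 0.336), and it did not pass between the tumor groups.

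The best known HSP70 genes were less clear. Hspa8, the constitutive HSP70, was bright everywhere, with 12.64, 12.59, 12.70 and 12.82 in deficient tumors, 12.65, 12.58, 12.96, 12.87 and 12.84 in control tumors, and 12.34, 12.27 and 12.51 in normal thymocytes. On this brightest probe set every tumor lay above every normal array, by little. The difference was 0.32 (limma adjusted p = 0.0861) in deficient and 0.41 (limma adjusted p = 0.0371) in control tumors. The control call was lost in 7 of the alternatives and the deficient difference turned to -0.07 with the 75th percentile. Its least bright probe set did not separate the groups, at 13.14, 10.77, 11.14 and 11.16 in deficient tumors, 10.79, 10.41, 12.16, 11.97 and 11.95 in control tumors, and 11.35, 11.32 and 11.43 in normal thymocytes. Deficient tumor 1 was the highest array there and the other deficient tumors lay below the normal arrays. That probe set gave 0.19 in deficient and 0.09 in control tumors, and a second bright one gave 0.39 and 0.48. Which of them lies at the gene itself was not tested. Hspa1a, the heat-inducible HSP70, had 7.43, 7.71, 8.41 and 8.91 in deficient tumors, 8.60, 6.91, 9.69, 8.54 and 9.60 in control tumors, and 7.09, 7.11 and 7.14 in normal thymocytes. Tumors varied widely and normal arrays hardly, and control tumor 2 lay below the normal arrays. The difference was 1.00 (SE 0.542, limma adjusted p = 0.164) in deficient and 1.56 (SE 0.518, limma adjusted p = 0.0435) in control tumors, a call that was lost in 7 of the alternatives. Signal of Hspa1a may include its near-identical copy Hspa1b. The distant HSP70 relative Hspa12a, which was dim, was the lower gene of the class at a difference of -0.74 in deficient tumors (limma adjusted p = 0.00812).

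**Figure D3:**
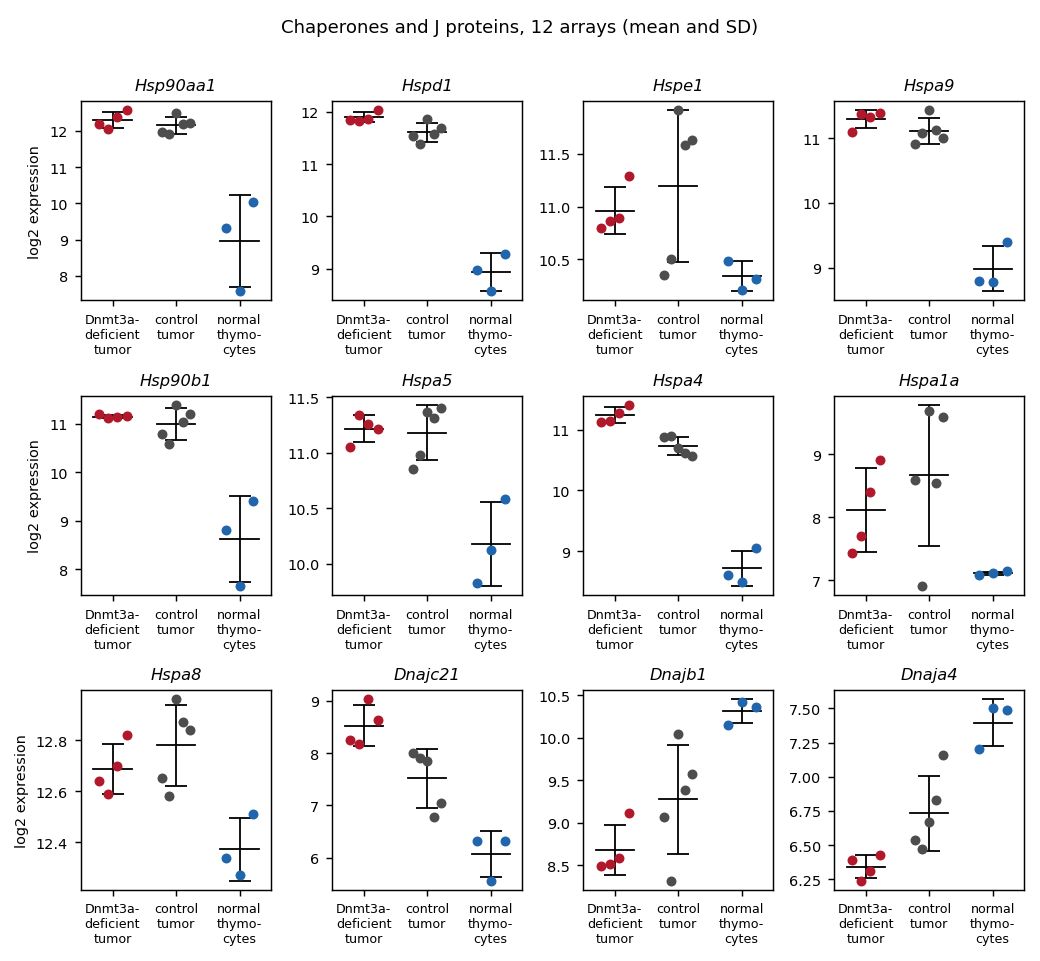
Log2 expression of 12 chaperone and J protein genes on each array (points, replicates from left to right), with the mean and SD of each group as bars. The axes do not start at 0 and differ between panels. Hsp90aa1, Hspd1, Hspa9, Hsp90b1 and Hspa4 stand above all normal arrays in every tumor, and Dnajb1 and Dnaja4 stand below them.

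In the endoplasmic reticulum 4 of 10 genes rose in deficient tumors and 5 in control tumors, and none fell, although with the 75th percentile 1 was lower in deficient tumors. Hsp90b1, the HSP90 of this compartment (GRP94), had log2 values of 11.20, 11.11, 11.13 and 11.15 in deficient tumors, 10.78, 10.58, 11.39, 11.03 and 11.19 in control tumors, and 8.81, 7.66 and 9.41 in normal thymocytes. The tumors lay above the normal arrays, of which number 2 was again the lowest. It was 5.75-fold higher in deficient and 5.17-fold higher in control tumors (limma adjusted p = 5.01e-05 and 9.32e-05). Hspa5, the HSP70 of this compartment (BiP), had 11.05, 11.34, 11.26 and 11.21 in deficient tumors, 10.85, 10.98, 11.37, 11.31 and 11.40 in control tumors, and 9.83, 10.13 and 10.58 in normal thymocytes. It rose by 1.03 in deficient and 1.00 in control tumors on the log2 scale. Hspa13, a small microsomal HSP70 relative, rose by 1.98 in deficient and 1.54 in control tumors, and Dnajc1, a membrane J protein that contacts BiP, by 0.93 in deficient and 0.80 in control tumors. Of the other J proteins, Dnajc3 differed by 0.23 in deficient and 0.32 in control tumors and Dnajc10, a J protein with disulfide reductase activity, by 0.16 in deficient tumors and 0.60 in control tumors, where it was called (limma adjusted p = 0.0429). Dnajb9, Dnajb11, Dnajb12 and Dnajb14 passed in neither comparison.

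The endoplasmic reticulum stress element, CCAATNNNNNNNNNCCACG, is the motif read by the unfolded protein response. It occurred on either strand in the windows of 3 of the 69 genes (4.35%), Hspa5, Hsp90b1 and Dnajc3, and in 0.137% of all genes with a window. The 3 stretches are printed, with each match in capitals, because they set genes with and without a rise side by side. They are Hspa5 at chr2:34771970-34772089 (plus strand), Hsp90b1 at chr10:86705445-86705664 (minus strand, the second match reading on the opposite strand) and Dnajc3 at chr14:118937812-118937931 (plus strand).
Hspa5: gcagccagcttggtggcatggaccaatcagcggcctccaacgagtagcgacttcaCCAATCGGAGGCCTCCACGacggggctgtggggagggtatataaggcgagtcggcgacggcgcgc
Hsp90b1: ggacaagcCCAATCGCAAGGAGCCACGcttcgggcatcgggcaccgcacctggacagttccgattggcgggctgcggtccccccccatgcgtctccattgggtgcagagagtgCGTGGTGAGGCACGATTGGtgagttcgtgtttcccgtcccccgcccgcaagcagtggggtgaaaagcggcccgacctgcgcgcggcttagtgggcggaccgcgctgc
Dnajc3: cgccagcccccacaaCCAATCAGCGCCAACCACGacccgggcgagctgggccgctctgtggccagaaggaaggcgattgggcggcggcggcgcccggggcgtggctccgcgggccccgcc
Hspa5 and Hsp90b1 were higher in both tumor groups, and Dnajc3 passed in neither and changed sign with the scaling in deficient tumors (-0.16 with the 75th percentile).

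The DNAJA and DNAJB genes held most of the decreases, with 5 of 12 lower and 3 higher in deficient tumors and 3 lower and 3 higher in control tumors. Dnajb1, the main stress-inducible HSP40, fell. Its log2 values were 8.49, 8.51, 8.59 and 9.11 in deficient tumors, 9.07, 8.32, 10.04, 9.39 and 9.57 in control tumors, and 10.15, 10.42 and 10.36 in normal thymocytes. All normal arrays lay above all tumors, with control tumor 3 nearest. The difference was -1.63 (SE 0.312, limma adjusted p = 0.00124) in deficient and -1.03 (SE 0.298, limma adjusted p = 0.0228) in control tumors, and the control call was lost without normal thymocytes 2 (limma adjusted p = 0.0889) or 3 (limma adjusted p = 0.0721). Dnaja4, also inducible by stress, had 6.39, 6.24, 6.31 and 6.43 in deficient tumors, 6.54, 6.47, 6.67, 6.83 and 7.16 in control tumors, and 7.20, 7.50 and 7.49 in normal thymocytes. The 3 groups lay in that order without overlap, with differences of -1.06 in deficient (limma adjusted p = 0.000324) and -0.67 in control tumors (limma adjusted p = 0.00827). Dnajb5 differed by -0.92 in deficient and -0.62 in control tumors, the control call being lost in the fit of those groups alone and without control tumors 3 and 4. Dnajb3 and Dnajb8, J proteins known mainly from testis, were dim and were called lower in deficient tumors (-0.65 and -0.54).

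The genes that rose in this class were Dnajb4, Dnaja1 and Dnaja2. Dnaja1 and Dnaja2, the main partners of cytosolic HSP70, rose by 1.08 and 0.76 in deficient tumors and by 1.21 and 0.82 in control tumors. Dnajb4 had log2 values of 10.54, 8.62, 9.41 and 10.22 in deficient tumors, 10.80, 9.77, 9.06, 8.41 and 9.08 in control tumors, and 7.98, 7.36 and 7.97 in normal thymocytes. All tumors lay above the normal arrays but spread over a wide range. The difference was 1.93 (limma adjusted p = 0.0105) in deficient and 1.65 (limma adjusted p = 0.0265) in control tumors. The control call was lost without control tumors 1 and 2 (1.08, limma adjusted p = 0.0783) and on leaving out any normal array, and the deficient call was lost without normal thymocytes 2 (limma adjusted p = 0.0517). Without normal thymocytes 2 the difference was 1.72 in deficient and 1.45 in control tumors.

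Of the 21 other DNAJC genes, 6 rose and 2 fell in deficient tumors and 3 rose and 2 fell in control tumors. The control counts were near the shares of all genes, 13% higher and 11.3% lower. In deficient tumors 18.7% of all genes were higher and 19% lower. Dnajc21, whose yeast counterpart acts in maturation of the large ribosomal subunit, had log2 values of 8.26, 8.17, 9.03 and 8.64 in deficient tumors, 8.0, 7.91, 7.85, 6.77 and 7.05 in control tumors, and 6.32, 5.56 and 6.31 in normal thymocytes. Its groups did not overlap, with deficient tumors highest, at 5.51-fold the normal level in deficient and 2.74-fold in control tumors (limma adjusted p = 7.64e-05 and 0.00386). Dnajc13, an endosomal J protein, rose by 2.16 in deficient and 1.88 in control tumors, and its 15 probe sets gave 0.89 to 3.20 in deficient and 1.12 to 2.39 in control tumors. Dnajc14, which is known for the transport of membrane receptors, was lower, at 8.57 to 9.02 in deficient tumors, 8.33 to 8.85 in control tumors and 9.39 to 9.58 in normal thymocytes. Its differences were -0.61 in deficient and -0.87 in control tumors. Dnajc5b, a dim gene of the cysteine string protein family, differed by -0.42 (limma adjusted p = 0.078) in deficient and -0.76 (limma adjusted p = 0.00549) in control tumors, and Dnajc22, also dim, by -0.52 in deficient tumors (limma adjusted p = 0.0405).

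The small heat shock proteins, which hold unfolded proteins without ATP, gave no call in either comparison, at median differences of -0.38 in deficient and -0.21 in control tumors. With the 75th percentile, 5 of 7 were lower in deficient and 2 in control tumors, where 47.9% and 21.7% of all genes were lower. Hspb1 had log2 values of 5.65, 6.26, 6.50 and 5.82 in deficient tumors, 6.0, 7.47, 5.89, 5.85 and 6.0 in control tumors, and 6.47, 5.81 and 5.98 in normal thymocytes. Control tumor 2 stood alone above overlapping groups, and Hspb6 was also highest there, at 9.08 against 7.07 to 8.12 on the other arrays. That array had the raised adipocyte markers, and the part of such cells in these values was not tested. The differences of Hspb1, -0.03 in deficient and 0.16 in control tumors, changed sign with the scaling and, in control tumors, without control tumor 2. Of the genes in the set by symbol alone, Hspb11 rose in deficient tumors, by 1.27 (limma adjusted p = 0.0073). Hspg2 had 7.90, 6.84, 8.72 and 7.77 in deficient tumors, 6.33, 7.98, 6.42, 6.58 and 6.56 in control tumors, and 6.67, 6.84 and 6.62 in normal thymocytes, and passed in neither comparison.

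Deletion of Dnmt3a was addressed by setting deficient against control tumors. No chaperone gene passed limma's adjusted threshold there, where 0.59% of all genes were higher and 0.228% lower (0.818% in all). At an unadjusted p under 0.05, 15 were higher and 7 lower, against 20.2% of all genes in either direction. The median difference of the 83 genes was 0.07, and that of all genes -0.01. Single differences ran between -0.60 and 1.22. The smallest adjusted p, 0.0756, was that of Dnaja3, which had 9.51, 9.51, 9.49 and 9.71 in deficient tumors and 9.13, 9.30, 8.90, 8.71 and 8.92 in control tumors. These did not overlap, and the difference was 0.56 (SE 0.136, 95% interval 0.27 to 0.86). Every deficient tumor lay above every control tumor in 5 genes, against 3.8% of all genes, and below in 2, against 2.35%. The 5 were Dnaja3, Hspa4, Cct6a, Dnajc21 and Dnajc2, and the lower ones were Dnaja4 (-0.39, limma adjusted p = 0.173) and Hspa12b.

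Hspa4 differed by 0.51 (95% interval 0.21 to 0.81, limma adjusted p = 0.1), Cct6a by 0.45 (0.18 to 0.72, limma adjusted p = 0.098) and Dnajc21 by 1.01 (0.39 to 1.62, limma adjusted p = 0.105). Dnajc6, auxilin, which strips clathrin from vesicles, had the largest difference between tumors. It had log2 values of 9.13, 9.12, 9.76 and 10.07 in deficient tumors, 7.89, 8.70, 7.96, 7.67 and 9.27 in control tumors, and 8.89, 8.84 and 8.92 in normal thymocytes. Control tumor 5 lay among the deficient tumors and the other control tumors below the normal arrays. The difference between tumors was 1.22 (95% interval 0.56 to 1.88, limma adjusted p = 0.0772), and neither tumor group differed from normal thymocytes past the threshold. Among genes with a large rise in tumors, the intervals contained 0 for Hspd1 (-0.04 to 0.61), Hspa9 (-0.16 to 0.52) and Hsp90aa1 (-0.64 to 0.93). Those of Hspa4 and Dnajc21, given above, and of Dnajc15 (0.28 to 1.56) did not. A p above the threshold does not show that the tumor groups were alike.

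The number of genes that passed between the tumor groups changed with the control tumors in the fit. Without control tumors 1 and 2, a pair left out because they stood apart from the other control tumors, 17 chaperone genes were higher and 13 lower in deficient tumors, where 16.1% and 9.24% of all genes were. Among the higher ones, Dnajc15 was then at 1.36 (limma adjusted p = 0.00146), Dnajc21 at 1.30 (limma adjusted p = 0.00704) and Dnaja3 at 0.71 (limma adjusted p = 0.00204), where all control tumors gave 0.92, 1.01 and 0.56. Among the lower ones, Cct8 was at -0.99 (limma adjusted p = 0.00397), Hspe1 at -0.75 (limma adjusted p = 0.00466), Cct7 at -0.66 (limma adjusted p = 0.00397) and Dnajb1 at -0.99 (limma adjusted p = 0.00319). With all control tumors, the differences of these 4 lower genes were -0.53, -0.23, -0.29 and -0.60. Control tumors 1 and 2 shared the higher upper quartile of 8.50 to 8.60 with the deficient tumors. Control tumors 3, 4 and 5 had 8.25 to 8.30. Without control tumors 1 and 2, that split of the arrays and Dnmt3a status therefore cannot be told apart. Without control tumor 1 alone 3 genes were higher and 1 lower, against 4.08% and 1.17% of all genes, and without control tumor 2 alone 8 were higher and 2 lower, against 5.71% and 1.96%. Leaving out control tumors 3 and 4, which had the raised neutrophil markers, also gave no chaperone gene called in either direction. In that fit 0.0207% of all genes were higher and 0.0104% lower. Hspe1 and Cct7 then turned to 0.14 and 0.01.

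**Figure D4:**
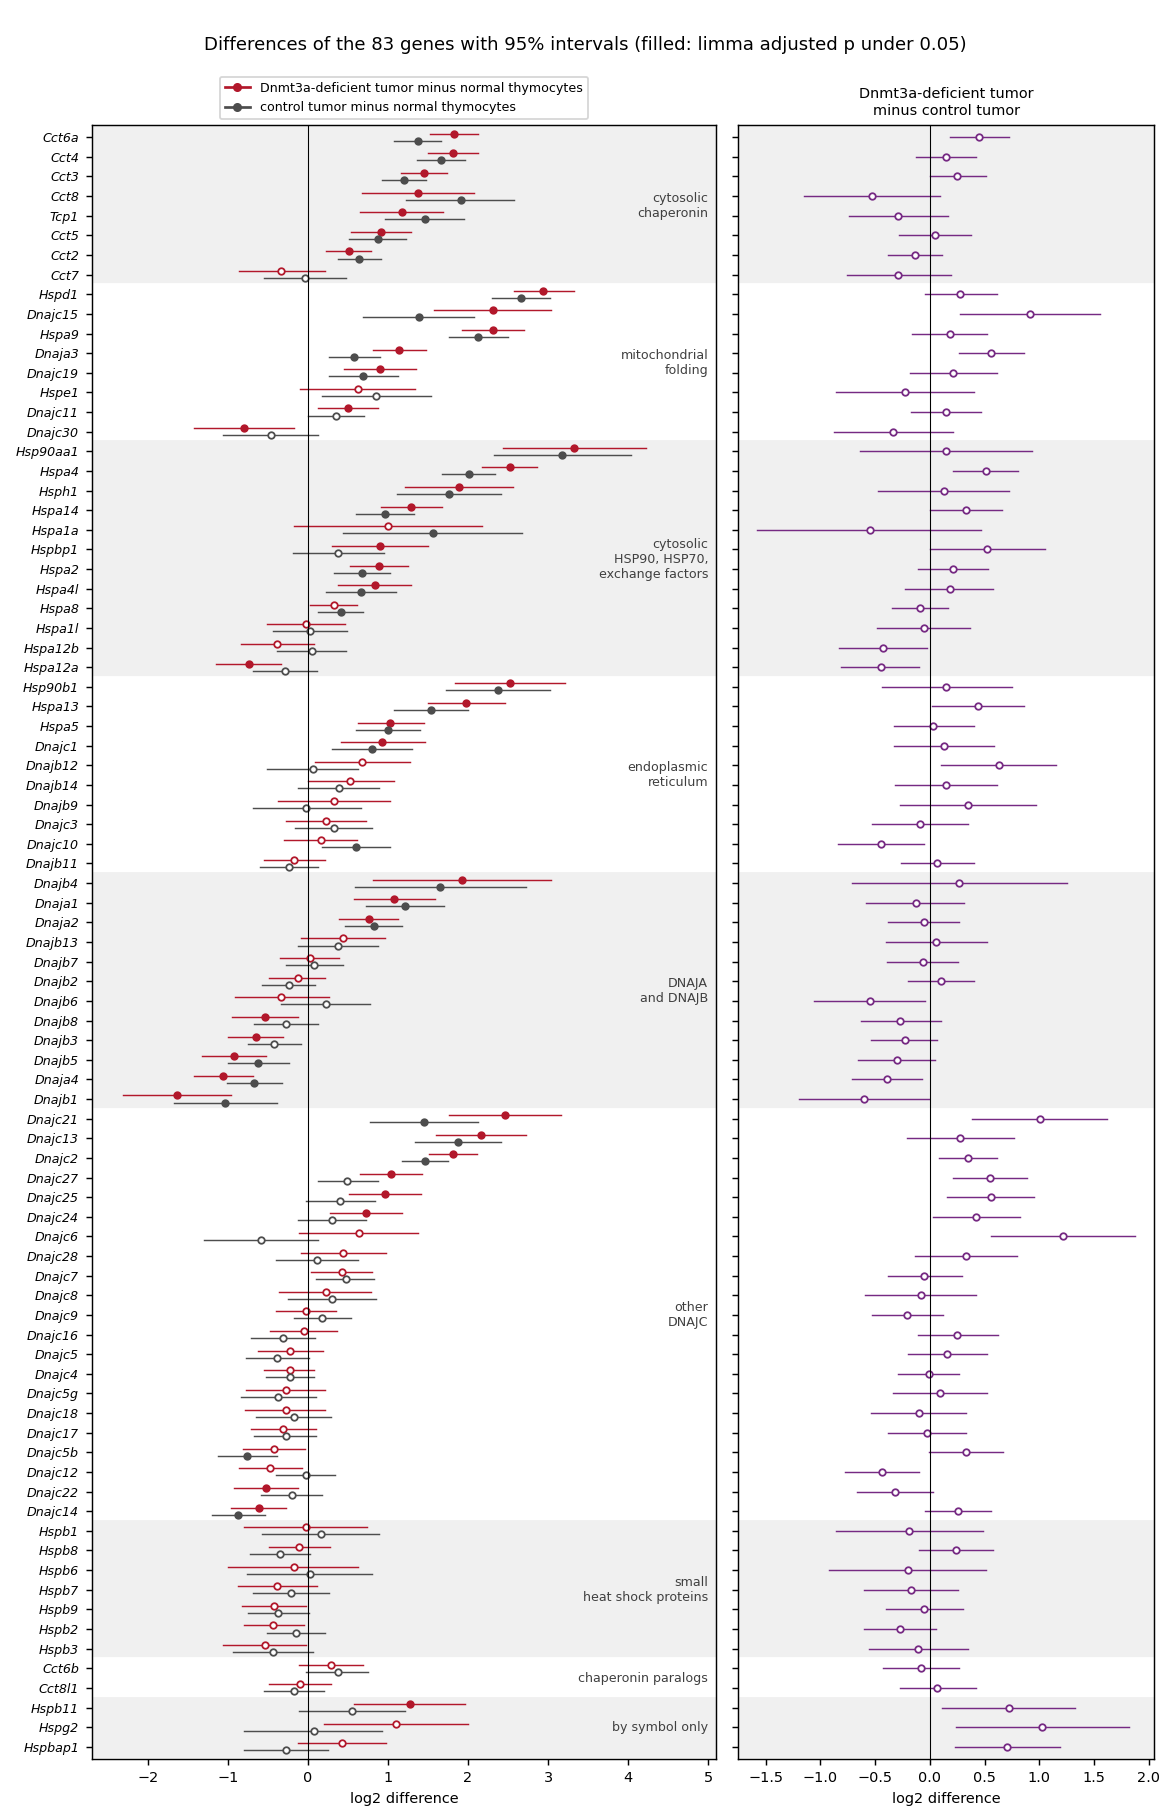
Log2 differences of the 83 genes by class, with 95% limma intervals: both tumor groups minus normal thymocytes on the left, and Dnmt3a-deficient minus control tumors on the right. Filled points passed an adjusted p under 0.05, and none on the right did.

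Genes that work with the chaperones were counted in lists, to be read against the 18.7% of all genes higher and 19% lower in deficient tumors and the 13% and 11.3% in control tumors. Of 28 measured partners of HSP70 and HSP90, 17 were higher and 4 lower in deficient tumors and 14 were higher and 3 lower in control tumors, at medians of 0.79 in deficient and 0.51 in control tumors. Tomm70a, the mitochondrial import receptor that docks HSP70 and HSP90, rose by 2.15 in deficient and 2.07 in control tumors, and Ppid, the HSP90-binding cyclophilin 40, by 2.10 in deficient and 1.70 in control tumors. Bag3, an HSP70 cochaperone of selective autophagy, rose by 1.69 in deficient tumors (limma adjusted p = 0.0012) and differed by 0.68 in control tumors (limma adjusted p = 0.132). Of 18 prefoldin and chaperonin cofactor genes, 9 were higher and 2 lower in deficient tumors and 7 were higher and 1 lower in control tumors. They included Uri1, a prefoldin-like protein (1.38 in deficient and 1.36 in control tumors), and Txndc9, a regulator of the chaperonin (2.04 in deficient and 1.35 in control tumors).

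Pfdn2, a prefoldin subunit that hands actin and tubulin chains to the chaperonin, was called between tumors. It had log2 values of 10.06, 10.64, 10.60 and 10.68 in deficient tumors, 9.84, 9.87, 9.67, 9.44 and 9.75 in control tumors, and 9.26, 9.21 and 9.28 in normal thymocytes. The 3 groups did not overlap, and the difference between tumors was 0.78 (SE 0.148, limma adjusted p = 0.0358). The call was lost with the 75th percentile (limma adjusted p = 0.0727), with a replicate block, without control tumors 3 and 4 (limma adjusted p = 0.227), in the fit of the tumor groups alone (limma adjusted p = 0.108), and on leaving out any normal array, control tumor 3 or 4, or deficient tumor 2, 3 or 4. It was the only call between tumors among the 6 lists. Of 13 genes of mitochondrial protein quality control, 9 were higher and 1 lower in deficient tumors and 7 were higher and none lower in control tumors. Among them the inner membrane protease genes Yme1l1 (1.88 in deficient and 2.06 in control tumors) and Afg3l2 (1.24 in deficient and 0.91 in control tumors) rose.

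Of 29 genes of endoplasmic reticulum folding and the unfolded protein response, 10 were higher and 4 lower in deficient tumors and 5 were higher and 3 lower in control tumors. Canx, the lectin chaperone calnexin, rose by 2.80 in deficient and 2.28 in control tumors, Pdia5, a disulfide isomerase, by 2.36 in deficient and 1.40 in control tumors, and Atf6, a sensor of the unfolded protein response, by 1.55 in deficient and 1.44 in control tumors. The control call of Pdia5 was lost without normal thymocytes 2 (1.23, limma adjusted p = 0.0578). Among those that fell were Eif2ak3, the sensor kinase PERK, by 0.68 in deficient and 0.74 in control tumors, and Fkbp2, a prolyl isomerase, by 1.33 in deficient tumors (limma adjusted p = 0.00812). Xbp1, a transcription factor of the response, differed by -0.22 in deficient tumors (limma adjusted p = 0.522) and fell by 0.95 in control tumors (limma adjusted p = 0.0106). Of 6 heat shock factor and regulator genes, 3 were higher and 1 lower in deficient tumors and 1 was higher in control tumors. Hsf2 rose in deficient tumors by 0.92 (limma adjusted p = 0.0147) and differed by 0.16 in control tumors (limma adjusted p = 0.7), a value that turned to -0.05 with the 75th percentile. Hsf1 was not analysed here. The immediate early genes, which respond to tissue handling as some heat shock genes do, were more often lower than higher: 6 of 13 were lower and 1 higher in deficient tumors, and 3 were lower in control tumors. Zfp36 and Btg2 differed by -1.85 and -1.87 in deficient tumors and by -1.45 and -1.43 in control tumors, and whether handling differed between groups was not tested.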

How the data were processed

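Total RNA of 12 thymus samples was measured on single-colour whole-transcript arrays. The deposited values are on the log2 scale, 1 per probe set. Per the submitters' processing notes the authors used RMA and Affymetrix Expression Console, in versions not given in the sources used here. RMA usually leaves equal quartiles on all arrays, and the deposited ones differed, so other scalings were run as alternatives. Signals are scaled within arrays, which hides any change in the RNA content of cells, and levels of different probe sets are not comparable. The number of arrays limits the precision.

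Of 23858 probe sets, 20870 had 1 gene symbol, 1453 had several and 1535 had none. Those with a single symbol were kept, with the brightest per gene. This left 10 probe sets out that shared a chaperone symbol with another gene, and 8 of the 83 genes had several sets. Promoter windows and starts are those of RefSeq on GRCm38.p6.

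All 12 arrays and 19309 genes entered 1 limma 3.58.1 fit (R 4.3.3) with a mean per group, with 9 residual and 4.17 prior degrees of freedom. Tests were two-sided, Benjamini-Hochberg adjusted over all genes, and called under 0.05. Differences are on the log2 scale, the group named first minus the other. The steps were tested on simulated data. The symbol rule, the classes and the lists were themselves set with earlier results of these data known. Named genes were the chaperonin subunits, the main heat shock proteins of each compartment, up to 10 called genes with the largest change in each direction and up to 4 called genes per further list. Dnmt3a and Myc served as checks. The other named genes (Dnajc2, Hspa14, Dnaja1, Dnaja2, Dnaja3, Dnajc19, Dnajc10, Dnajc3, Dnajc1, Dnajb6, Hspb6, Hspb11, Hspbp1, Hspa4l, Hspa2, Hspg2, Dnajc6, Pfdn2, Fkbp2, Eif2ak3, Xbp1 and the marker genes) were chosen after their values were seen. Alternatives covered scaling, the dimmest 50% of genes, probe set averaging, the variance model, a replicate block, the groups in the fit, and each array or pair of control tumors left out.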

Additional observations from a re-analysis of the deposited data

Results flagged for a closer look

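In 10 of 108 groups of 4 or 5 arrays, over the named genes, a single array lay far from the rest of its group. Chance gives about 1 in 20 for independent groups picked without regard to their values. These genes share the same arrays and some were chosen after their values were seen, so the count cannot be judged against that rate. Cct3 was at 11.67 in deficient tumor 4, where the other deficient tumors were at 11.38 to 11.42. Dnajb1 was at 9.11 in the same tumor, with the others at 8.49 to 8.59, and Dnaja3 at 9.71, with the others at 9.49 to 9.51. In deficient tumor 1, Dnajc15 was at 8.16 against 9.12 to 9.28 in the other deficient tumors, Dnajc22 at 4.73 against 5.11 to 5.19, and Pfdn2 at 10.06 against 10.60 to 10.68. In control tumor 2, Hspb1 was at 7.47 against 5.85 to 6.0 in the other control tumors, and Hspg2 at 7.98 against 6.33 to 6.58. The 7 adipocyte markers averaged 8.51 on that array, and their part in these values was not tested. Hspa12a was at 4.66 in control tumor 1, where the other control tumors were at 5.30 to 5.54, and Dnajc22 at 5.88 in control tumor 3, with the others at 5.13 to 5.33.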

How the results depend on the processing

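The number of arrays and their spread limit the size of change that can be called. Among the alternatives that kept all arrays or left out a pair, 1723 of the values kept their direction and side of the threshold, 78 lost their call, 44 gained one and 22 changed sign. On leaving out single arrays, 1924 did not change, 100 lost a call, 21 gained one and 7 changed sign. The count of genes lower in control tumors than in normal thymocytes was 5, and it was 13 with the 75th percentile (21.7% of all genes instead of 11.3%). It was 8 with a second quantile normalization (13.8% of all genes) and 9 without control tumors 1 and 2 (12.5%). On leaving out single arrays it was 3 to 7 (6.74% to 12.2% of all genes). Genes lower in deficient tumors than in normal thymocytes numbered 9, and 25 with the 75th percentile, where the share of all genes so called was 47.9% instead of 19%. Between deficient and control tumors, 0 genes were called higher and 0 lower, against 0.59% and 0.228% of all genes. With each array centred on its median 2 were higher, against 1.71% of all genes. Without control tumors 1 and 2 there were 17 higher and 13 lower, against 16.1% and 9.24%. Leaving out single arrays gave 0 to 8 higher, against 0.057% to 5.71% of all genes, and 0 to 2 lower, against 0.0259% to 1.96%.

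In control tumors against normal thymocytes, the 75th percentile gave -0.05 for Hspb1, -0.14 for Hspg2 and -0.05 for Hsf2. Without control tumors 1 and 2, Cct7 was at 0.33, Hspb1 at -0.17, Hspg2 at -0.19, Hsf2 at -0.08 and Ier2, at -0.76 with all arrays, at 0. Without control tumors 3 and 4, Dnajb6 was at -0.09. Leaving out single arrays gave -0.15 to 0.11 for Cct7 (0.09 without control tumor 1), -0.15 to 0.35 for Hspb1 and -0.24 to 0.18 for Hspg2. In deficient tumors against normal thymocytes, the 75th percentile gave -0.07 for Hspa8, -0.23 for Dnajc10 and -0.16 for Dnajc3, the second quantile normalization gave -0.24 for Dnajc10 and -0.07 for Dnajc3, and cyclic loess gave -0.09 for both. Hspb1 there was at 0.05 with median centring, 0.15 with the second quantile normalization, 0.22 with cyclic loess, and -0.18 to 0.16 on leaving out single arrays. Between the tumor groups, without control tumors 3 and 4, Cct7 was at 0.01 and Hspe1 at 0.14. The cause was not tested.

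The labels number the samples in every group. Deviations of same-numbered samples had correlations of -0.134 to 0.338. The highest was that of deficient tumor 1 with control tumor 1, and all others were at most 0.087. The numbers were not taken as pairs. With a replicate block, 33 genes were higher and 8 lower in deficient tumors than in normal thymocytes, against 18.6% and 17.3% of all genes. In control tumors 28 were higher and 5 lower, against 13.6% and 10.3%. Between the tumor groups 0 were called, against 0.29% of all genes higher and 0.249% lower. Hspb1 in deficient tumors against normal thymocytes was at 0.09.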
